A study of Mus musculus with 4 samples.

Results

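Mast cells are granule-filled immune cells that settle in connective tissue, where they are classically found beside vessels and nerves. Their granules store histamine, which is made by histidine decarboxylase, the product of *Hdc*, and proteases such as the chymase encoded by *Mcpt4*, which marks mast cells of connective tissue in mice. On activation the granules are released, and cytokines, chemokines and growth factors may follow. Basophils, their circulating relatives, carry the protease encoded by *Mcpt8* in place of *Mcpt4*, and make histamine too.

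Cells of this kind were looked for in mouse tissue profiled with Xenium. This assay detects individual RNA molecules where they lie in a slice of tissue, for a panel of 328 genes here, and allots each one to the cell outline that contains it. A cell was counted as Mcpt4-positive when it held at least 10 transcripts in all and at least 2 *Mcpt4* transcripts, each read with a quality score of at least 20. This picked 1680 of 426792 cells on 4 slides. There were 669 of 78962 cells on the slide of male unwounded dorsal skin, 100 of 161614 on the slide of female unwounded dorsal skin, 503 of 62782 on the slide of buccal mucosa (the lining of the cheek) and 408 of 123434 on the slide of male dorsal skin 4 days after wounding. All but 1 of them, 1679 cells, lay in the 17 tissue sections that could be separated by position. *Mcpt4* therefore chose the cells, and its level in them is given only as a description.

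The study asked whether PITX1, a transcription factor of oral epithelium, brings features of the mouth to skin. Skin came from Tet-On, TRE-Pitx1/Krt5-rtTA mice, in which the *Krt5* promoter restricts the inducible transgene to keratinocytes, so that cells of the connective tissue were not its target. Per the study's methods, littermates were fed normal chow (Control) or doxycycline chow for 6 weeks from telogen, the resting phase of hair (PITX1+), and the labels call these treatments Vehicle and Doxycycline. Buccal mucosa was from both sexes and labelled Control and Vehicle, and the wounds were from male Control and PITX1+ mice. Ages and strains are not given in the sources used here.

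The labels name the conditions of a slide and not those of each section, so sections were assigned by their place on the slide, and for the wounds the assignment rests on place alone. This gave 3 Control sections (2 female, 1 male) and 4 PITX1+ sections (2 female, 2 male) of unwounded skin, 7 buccal sections, and 1 Control and 2 PITX1+ wounds. The labels tie no section to an animal, although a figure legend of the study counts mice and mucosae in the numbers of the PITX1+ and buccal sections, and p-values therefore measure the spread between sections. *Pitx1* was measured in keratinocyte-marker cells, defined below, as CPM, transcripts per 1000000 transcripts of all panel genes. It stood at 13.1 in the male Control section and at 1077 and 834 in the male PITX1+ sections. On the female slide it did not separate the conditions, with 62.5 and 56.5 in the Control and 46.5 and 78.8 in the PITX1+ sections. The wounds had 58.3 in the Control and 629 and 318 in the PITX1+ sections. Buccal 3, which held 11 such cells, had 0 *Pitx1* transcripts in them, and the other buccal sections had 728 to 1278 CPM. Sex and slide are the same variable in unwounded skin, tissue and slide cannot be told apart for buccal mucosa, and the sections held between 136365 and 5581930 transcripts.

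The name of these cells could be checked against few genes. Of genes that define mast cells the panel held *Hdc* beside *Mcpt4*, so the name rests on fewer than 3 markers, and the cells are called Mcpt4-positive here. *Hdc* was found in 340 of 1679 cells (20.2%). As CPM, from here on per 1000000 panel transcripts other than *Mcpt4*, summed over the Mcpt4-positive cells of a section, *Hdc* was at 1111, 2740 and 8026 in the Control sections (female 1, female 2, male). The PITX1+ sections had 1605 and 4895 on the female slide and 7006 and 5832 on the male slide. In the buccal sections *Hdc* ranged from 0 to 2338 with a median of 1087, and the wounds had 6953 in the Control and 8867 and 14008 in the PITX1+ sections. These levels lay above those of the other cells of the same section in 16 of 17 sections, Buccal 3 (35 Mcpt4-positive cells) being the exception with no *Hdc* transcript at all. In some sections the direction rested on few transcripts. There were 1, 1 and 2 *Hdc* transcripts in Control female 1, Control female 2 and PITX1+ female 1. Buccal 1, 2, 5 and 6 had 4, 5, 3 and 2. Cells with no *Mcpt4* held between 9.08 and 338 CPM in unwounded skin and buccal mucosa. In the wounds they held between 2479 and 3738, and 12.4% to 16.6% of them had an *Hdc* transcript. *Mcpt8* was sparse, with 7 transcripts in 5 of the 1679 cells. Of these cells 4 lay in wounds and 1 in female skin, and none in male unwounded skin or buccal mucosa. The wounds had 6 of the transcripts, all in cells with 2 *Mcpt4* transcripts. They made 201 CPM in Mcpt4-positive cells, against 59.1 in the other cells of the wounds.

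The female slide stood apart, and results that rest on it are given with and without it. Its Mcpt4-positive cells held 2 *Mcpt4* transcripts in 77 of 100 cases and 5 or more in 3. They had keratinocyte transcripts in 49.0% of cases, against 17.2% on the male slide. Only 5.11% to 14.97% of the *Mcpt4* transcripts of a female section lay in its Mcpt4-positive cells, against 73.5% to 81.0% on the male slide, the rest being spread over cells with a single one. Outlines can take up transcripts of neighbouring cells, and no caller of doublets was run. Background was measured in keratinocyte-marker cells, which held at least 3 keratinocyte transcripts and more of these than of any other cell type's list. Per section, 0 to 0.237% of them held 2 or more *Mcpt4* transcripts, and 0.0206% to 0.0468% did on the female slide. The median depth of these keratinocyte-marker cells was 26 to 205 transcripts per section, against 22 to 91 in the Mcpt4-positive cells. In PITX1+ female 1 the background (0.0286%) was as high as the share among all cells (0.0280%), with 16 Mcpt4-positive cells. In Control female 1, Control female 2 and PITX1+ female 2 the shares were 0.133%, 0.0764% and 0.0691%. The exact 95% binomial intervals of the background reached 0.137%, 0.115% and 0.0692% there, and so covered them. No share above background was thus shown in any female section. The interval also covered the share in Buccal 3, with 11 keratinocyte-marker cells, and in Buccal 6 (0.335%, interval up to 0.517%).

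Mcpt4-positive cells were rare in every section. Their density, which was not corrected for depth per cell, was higher in buccal mucosa than in Control skin. Density was taken per mm² of tissue, as the area of 50 µm squares that held a cell. It was 3.82 and 1.68 cells per mm² in the female and 15.8 in the male Control section, and 1.65 and 4.39 in the female and 38.5 and 41.8 in the male PITX1+ sections. Buccal sections had a lowest value of 19.3, a median of 35.5 and a highest of 55.3 cells per mm². All 7 buccal sections thus lay above all 3 Control sections, whereas PITX1+ and Control sections overlapped, with both female PITX1+ sections among the lowest of all. The median depth of all cells was 26 to 32 transcripts in Control and 41 to 125 in buccal sections. *Mcpt4* over all cells, as CPM of all panel transcripts, was not higher in buccal mucosa. It was 304 to 1460 (median 455) in Control and 261 to 1790 (median 408) in buccal sections. The highest values were those of the male Control section and of Buccal 3, with 455 and 544 next in their groups. Buccal 3 held 11 keratinocyte-marker cells among 2449 cells. Per mm² there were 27.4 to 121 *Mcpt4* transcripts in Control and 159 to 351 in buccal sections. The part of depth in the difference in density was not tested.

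Between buccal mucosa (36.8 ± 12.4 cells per mm², SD, n = 7) and Control skin (7.10 ± 7.61, n = 3) the difference was 29.7 cells per mm² (two-sided exact permutation test over sections, p = 0.00833, the smallest this design allows, adjusted p = 0.0333 over 4 comparisons of density and share). Without the female slide the buccal sections still lay above the 1 remaining Control section, by 21.0 cells per mm², which could not be tested to the threshold (exact p = 0.25). With any 1 section left out it was 26.6 to 34.1, with adjusted exact p-values of 0.0476 to 0.1. The call also did not hold when cells with at least 3 *Mcpt4* transcripts were counted (13.4 cells per mm², adjusted exact p = 0.133) or at least 5 (5.96, adjusted exact p = 0.286).

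The density in PITX1+ skin (21.6 ± 21.5 cells per mm², SD, n = 4) was not shown to differ from Control. The difference was 14.5 cells per mm² (exact permutation p = 0.343, adjusted p = 0.457), and the smallest p for 3 sections against 4 is 0.0286. Within the male slide both PITX1+ sections lay above the Control section, with a mean of 40.1 against 15.8 cells per mm². Within the female slide the means were 3.02 and 2.75. With 1 male Control section the difference within the male slide has no replicate check. When conditions were exchanged only within slides, a test chosen after seeing the data, the mean of both within-slide differences was 12.3 cells per mm² (exact permutation p = 0.167, adjusted p = 0.333 over density and share), where the smallest p is 0.0556. With 1 section left out the difference from Control ran from 7.75 (without PITX1+ male 2) and 8.84 (without PITX1+ male 1) to 21.1 cells per mm² (without PITX1+ female 1, adjusted exact p = 0.267).

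As a share of cells the groups overlapped more. It was 0.133% and 0.0764% in the female and 0.670% in the male Control section, and 0.0280% and 0.0691% in the female and 0.758% and 1.05% in the male PITX1+ sections. In buccal mucosa it ran from 0.335% to 1.43%, the latter in Buccal 3, with a median of 0.847%. Of the 7 buccal sections 5 lay above all Control sections. The difference from Control of 0.545 percentage points did not pass (exact permutation test, p = 0.05 before and 0.1 after adjustment), and without the female slide it was 0.168. The difference between PITX1+ and Control was 0.182 percentage points (adjusted exact p = 0.657), with 0.232 on the male and -0.0560 on the female slide. Its sign rested on a single section, since it was -0.00799 without PITX1+ male 2. Exchanged within slides only, the mean difference was 0.0880 percentage points (exact permutation p = 0.667). With every cell thinned to 10 transcripts the mean share was 0.115% in Control, 0.134% in PITX1+ and 0.226% in buccal sections. The buccal difference did not pass then (exact permutation p = 0.175, adjusted p = 0.35). On the male slide the thinned shares were 0.289% in the Control and 0.281% and 0.233% in the PITX1+ sections. On the female slide they were 0.0308% and 0.0258% in the Control and 0.00604% and 0.0146% in the PITX1+ sections. Each PITX1+ section thus lay below the Control sections of its slide.

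**Figure D1:**
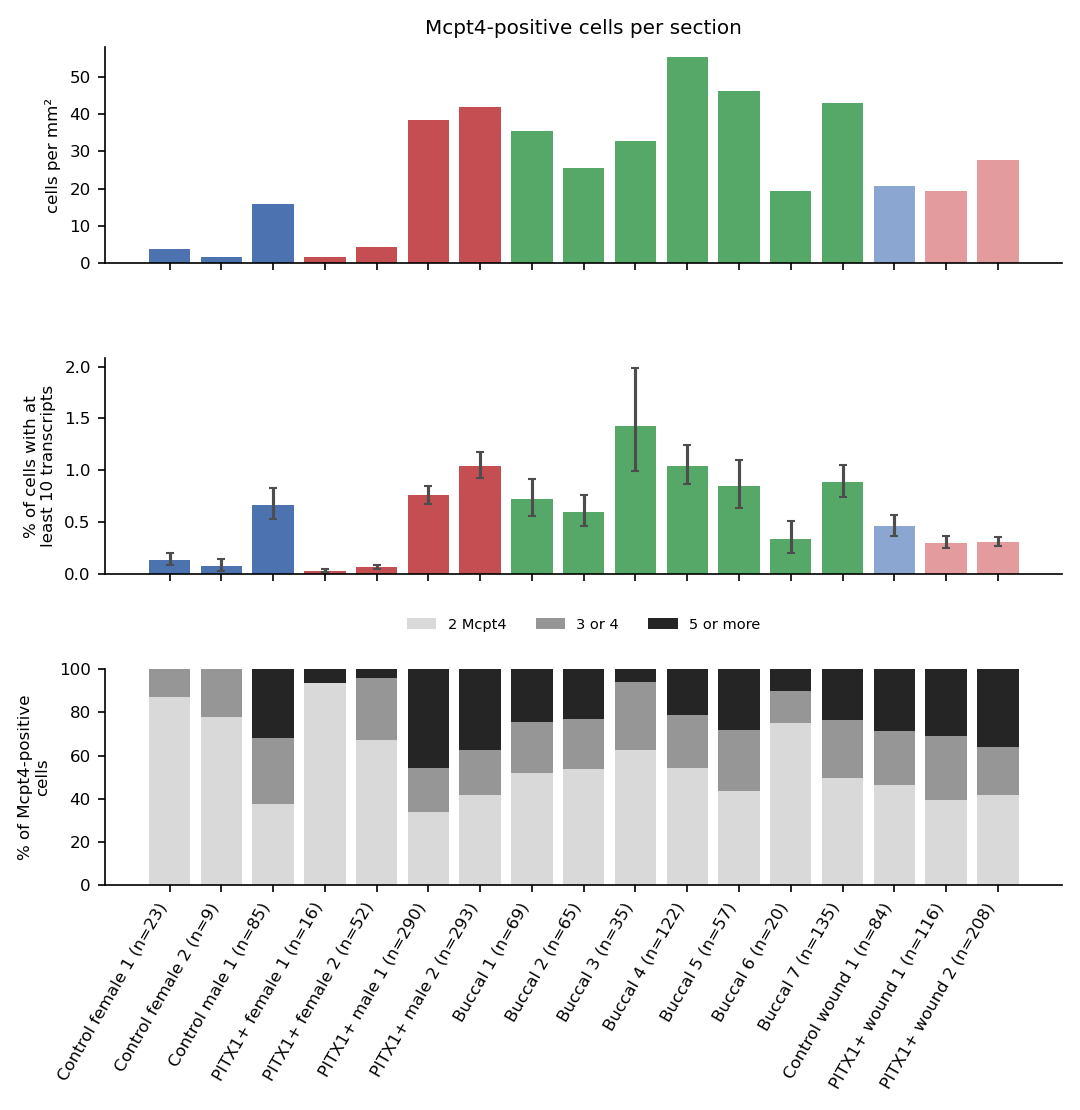
Mcpt4-positive cells by section (Control blue, PITX1+ red, buccal green, wounds in pale colours): the upper panel gives cells per mm², the middle panel their percent of cells with exact 95% binomial intervals (counting error only), and the lower panel the percent of them with 2, 3 to 4, or 5 or more *Mcpt4* transcripts. The 7 buccal sections lie between 19.3 and 55.3 cells per mm² and the female skin sections between 1.65 and 4.39, where nearly all of these cells hold fewer than 5 transcripts.

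Day 4 wounds held Mcpt4-positive cells at 20.6 per mm² in the Control and 19.2 and 27.8 in the PITX1+ wounds. Their shares were 0.460% (exact binomial 95% interval 0.367 to 0.569%), 0.304% (0.251 to 0.364%) and 0.311% (0.270 to 0.356%). The Control wound had the highest share and the middle density. With 1 Control wound no test was made, and the intervals cover counting error only.

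The amount of *Mcpt4* per cell varied widely. Of the 1679 cells, 768 (45.7%) held 2 transcripts, 394 held 3 or 4, and 517 (30.8%) held 5 or more. A further 5738 cells held exactly 1, just outside the rule. The mean per Mcpt4-positive cell was 2.17 to 2.5 on the female slide, 5.64 to 7.44 on the male slide, 2.6 to 4.53 in buccal mucosa and 5.68 to 6.13 in the wounds. The highest single cell held 65 transcripts, in the Control wound. The grades were then set against *Hdc*, which the rule had not used.

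*Hdc* was most frequent in cells with 5 or more *Mcpt4* transcripts. On the male unwounded slide 0.813% of cells with no *Mcpt4* and 1.67% of cells with 1 *Mcpt4* transcript had *Hdc*, against 5.53% with 2, 11.6% with 3 or 4 and 50.2% with 5 or more. The corresponding values were 0.330%, 1.16%, 3.76%, 1.58% and 19.1% in buccal mucosa, where the order of the middle grades was not kept, and 14.9%, 11.3%, 12.8%, 22.8% and 62.2% in wounds. Cells with 5 or more *Mcpt4* transcripts thus stood well above the other grades in all of these tissues, while cells with 2 differed less from cells with 1. *Hdc* was 235 CPM in cells with 1 and 15337 in cells with 5 or more on the male slide, 136 and 4578 in buccal mucosa and 2187 and 32658 in wounds, which is 65.4-, 33.6- and 14.9-fold. Cells with no *Mcpt4* had 135, 24.7 and 3206 CPM in the same order of tissues, so that in wounds cells with 1 (2187) or 2 *Mcpt4* transcripts (1960) held less *Hdc* than *Mcpt4*-free cells. It was higher in cells with 5 or more in all 11 sections that had at least 15 such cells. The female slide held 3 such cells, of which 33.3% had *Hdc*.

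Other panel genes were set against *Mcpt4* in the same way, by a rule chosen after the values had been seen, and with no test. Of all 327 other panel genes, with no filter, 17 (5.2%) were at least 2-fold higher in cells with 5 or more *Mcpt4* than in cells with 1 in at least 2 of the 3 tissues, and 3 (*Hdc*, *Tgfb1* and *Top2a*) in all 3. The median ratio of the 327 genes, many of which had few or no transcripts in so few cells, was 0.725 in male unwounded skin, 0.716 in buccal mucosa and 0.540 in wounds. *Tgfb1*, which encodes the growth factor TGF-β1, went from 1363 to 5332 CPM on the male slide, from 1337 to 3473 in buccal mucosa and from 2206 to 6140 in wounds. It was higher in 10 of 11 sections, where 3.06% of the 327 genes reached at least that count. *Cd63*, a tetraspanin of granule membranes that appears at the surface when mast cells degranulate, went from 14916 to 25189, from 13001 to 23678 and from 16389 to 43370. It was higher in 11 of 11 sections, as were 4 of the 327 genes (1.22%), the others being *Hdc*, *Vim*, which encodes vimentin, and *Cd44*. *Cd44*, the hyaluronan receptor, was higher than in cells with 1 by 1.86-, 2.66- and 1.85-fold, but cells with 1 held less of it than *Mcpt4*-free cells. From 0 to 1 to 5 or more it was at 4197, 2400 and 4469 CPM on the male slide, 4063, 2138 and 5683 in buccal mucosa and 6602, 4663 and 8622 in wounds. *Mcpt4*-free cells held 1668, 844 and 2744 CPM of *Tgfb1* and 9744, 10094 and 16112 of *Cd63* in the same tissues.

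Some genes differed between tissues in this respect. *Ncam1*, an adhesion molecule, was 4.07-fold and 9.47-fold higher in cells with 5 or more *Mcpt4* in male unwounded skin and wounds, and 1.04-fold in buccal mucosa. *Ccl7*, a chemokine for monocytes, was 2.79- and 3.80-fold higher in the same pair of skin slides, and no *Ccl7* transcript was found in these cells in buccal mucosa. They held 6335 transcripts other than *Mcpt4* there, and buccal cells with 1 *Mcpt4* had 208 CPM of *Ccl7*, so the counts were too few to compare. *Gpr171*, a G protein-coupled receptor, was 9.72-fold higher in male unwounded skin, 24.4-fold in buccal mucosa and 1.87-fold in wounds. The *Gpr171* folds rested on 19, 21 and 10 transcripts in cells with 5 or more, against 11, 17 and 75 in cells with 1. For *Ncam1* in buccal mucosa cells with 5 or more held 8 transcripts. These differences between tissues were not tested. *C1qa*, a complement gene of macrophages, was higher in cells with 1 *Mcpt4* transcript than in cells with none in all 3 tissues. On the male slide it was highest in cells with 2, at 3207, 7742, 11815, 10324 and 9344 CPM for 0, 1, 2, 3 to 4 and 5 or more. It was highest in cells with 5 or more elsewhere, at 760, 2810, 5967, 9462 and 13260 in buccal mucosa and 5975, 7743, 9342, 12813 and 13063 in wounds.

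**Figure D2:**
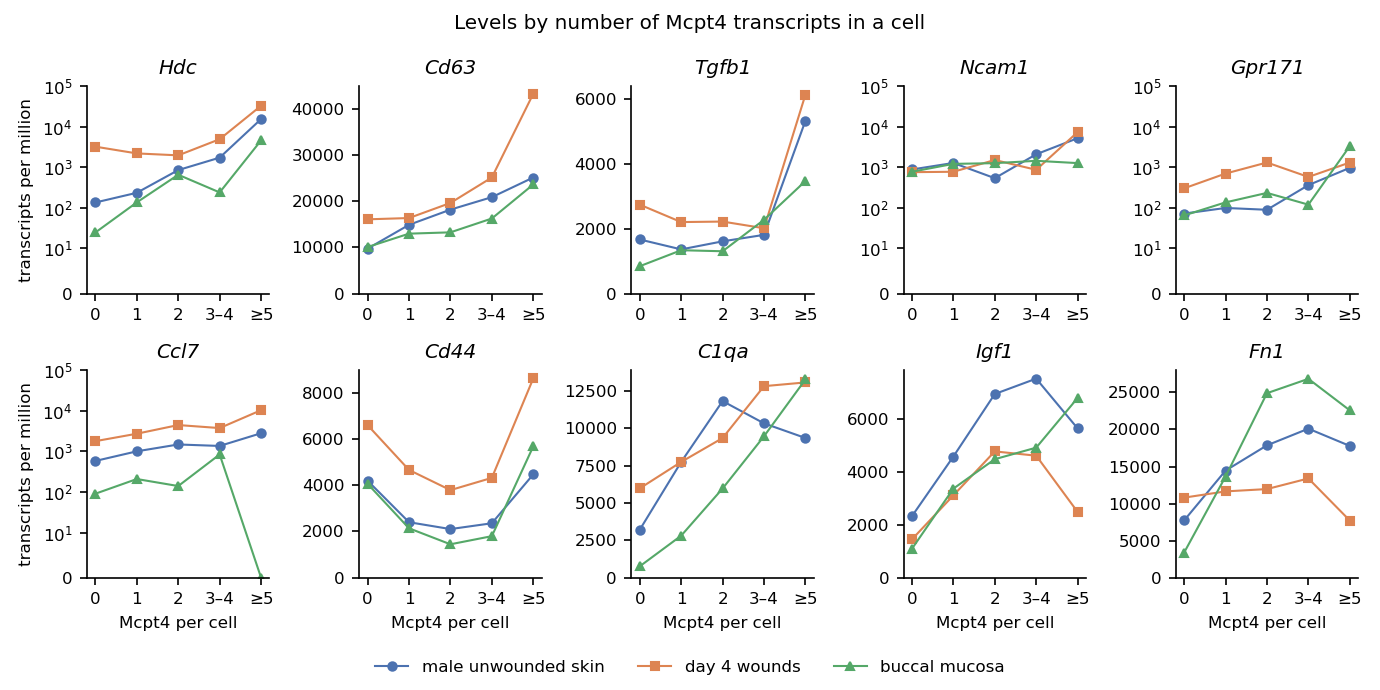
Levels of 10 genes, in CPM without *Mcpt4*, in cells grouped by their number of *Mcpt4* transcripts (0, 1, 2, 3 to 4, 5 or more), with a line for each of male unwounded skin, day 4 wounds and buccal mucosa; *Hdc*, *Ncam1*, *Gpr171* and *Ccl7* are on a logarithmic axis that is linear near 0. *Hdc* is highest at 5 or more in each tissue, at 15337 CPM in male unwounded skin, and *C1qa* is highest at 2 in male unwounded skin (11815 CPM) and at 5 or more in buccal mucosa and wounds.

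The panel genes that ran highest in Mcpt4-positive cells relative to the other cells of the same section were *Hdc* and a set known from macrophages and fibroblasts of connective tissue. Genes found in at least 5% of Mcpt4-positive cells were ordered by their mean log2 ratio over the 17 sections, with 20 CPM added, and the 12 highest are named. After *Hdc* (mean log2 ratio 3.64) came *Cd209f*, a lectin of macrophages (2.39), *C1qa* (1.78), *Retnla*, a secreted product of alternatively activated macrophages (1.69), and *Pi16*, a marker of adventitial fibroblasts (1.5). They were followed by *Abca8a*, a transporter of fibroblasts (1.39), *Igf1*, a growth factor (1.38), and *Cxcl13*, a chemokine for B cells (1.32). The last were *Fn1*, which encodes fibronectin (1.24), *Lyve1*, a hyaluronan receptor of lymphatic endothelium and some macrophages (1.2), *C3ar1*, a receptor for a complement fragment (1.12), and *Tnxb*, a matrix gene of fibroblasts (1.11).

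No gene was higher in Mcpt4-positive than in other cells in all 17 sections, and 4 of 327 (1.22%) were in at least 16. These were *Hdc*, *Cd209f* and a pair named after their values were seen, *Gpx3*, a secreted glutathione peroxidase, and *Grn*, which encodes the lysosomal protein progranulin. *C1qa* was higher in 15 sections, as *Pi16*, *Abca8a*, *Igf1*, *C3ar1* and *Tnxb* were, where 5.2% of panel genes reached at least 15. *Retnla*, *Fn1* and *Lyve1* were higher in 14 sections, and *Cxcl13* in 12, where 21.4% of panel genes reached at least 12. *Cxcl13* varied most of the 12 between sections (SD 2.74), with a mean log2 ratio of 3.16 in buccal mucosa and -0.61 in unwounded skin. Pooled over sections it was 24.6-fold its level in the other cells in buccal mucosa and 4.92-fold in unwounded skin.

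The female slide moved this order. Its mean log2 ratio was -1.95 for *Cxcl13*, -0.90 for *Retnla* and -0.82 for *Lyve1*. These means rested on 1, 2 and 4 transcripts in its Mcpt4-positive cells. Pooled over the female sections the same genes were at 1.10-, 2.06- and 1.43-fold their level in the other cells, and so not lower. Over the other 13 sections, a choice made after seeing the data, the highest were *Hdc* (3.72), *Cd209f* (2.90), *Retnla* (2.49), *Cxcl13* (2.33) and *C1qa* (2.18). Of the 12 highest there 8 were among those named above. *Igf1*, *C3ar1*, *Abca8a* and *Tnxb* gave way to *Mgl2* (1.95) and *Mrc1* (1.90), lectins of macrophages, *Lyz2*, a lysozyme of myeloid cells (1.80), and *Igfbp4*, a binding protein of insulin-like growth factors (1.67).

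Against neighbours, which were cells with no *Mcpt4* whose centres lay within 30 µm, the ratios were smaller. *Hdc* had a mean log2 ratio of 2.67 over neighbours and was above them in 16 sections, *Cd209f* had 1.37, *Retnla* 1.01 and *C3ar1* 0.97. *Fn1* had 0.29, *Tnxb* 0.26 and *Abca8a* 0.36. These matrix and fibroblast genes were thus closer to the level of neighbours than *Hdc* was. These are descriptions with no test, since the comparison is between the chosen cells and the rest.

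In buccal mucosa the folds of macrophage genes over other cells were larger than in skin. Pooled over the sections of a slide, *C1qa* in Mcpt4-positive cells was 10.2-fold its level in other cells in buccal mucosa, against 3.22-fold on the male, 1.99-fold on the female and 1.85-fold on the wound slide. *Cd209f* was 21.2-fold higher in buccal mucosa, and between 2.96- and 3.97-fold on the other slides. The Mcpt4-positive cells of buccal mucosa held 8053 CPM of *C1qa*, the lowest of the 4 slides, against 10588 on the male, 12847 on the female and 11101 on the wound slide, and 2795 CPM of *Cd209f*, against 2958, 931 and 2207. The other cells held less there, at 790 CPM of *C1qa* against 3290, 6468 and 5994 and at 132 CPM of *Cd209f* against 811, 314 and 556. *Hdc* was 46.7-fold higher on the male slide, 47.3-fold in buccal mucosa, 14-fold on the female slide and 3.29-fold in the wounds, where the other cells had *Hdc* as well. Whether the slides differ in these ratios was not tested.

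**Figure D3:**
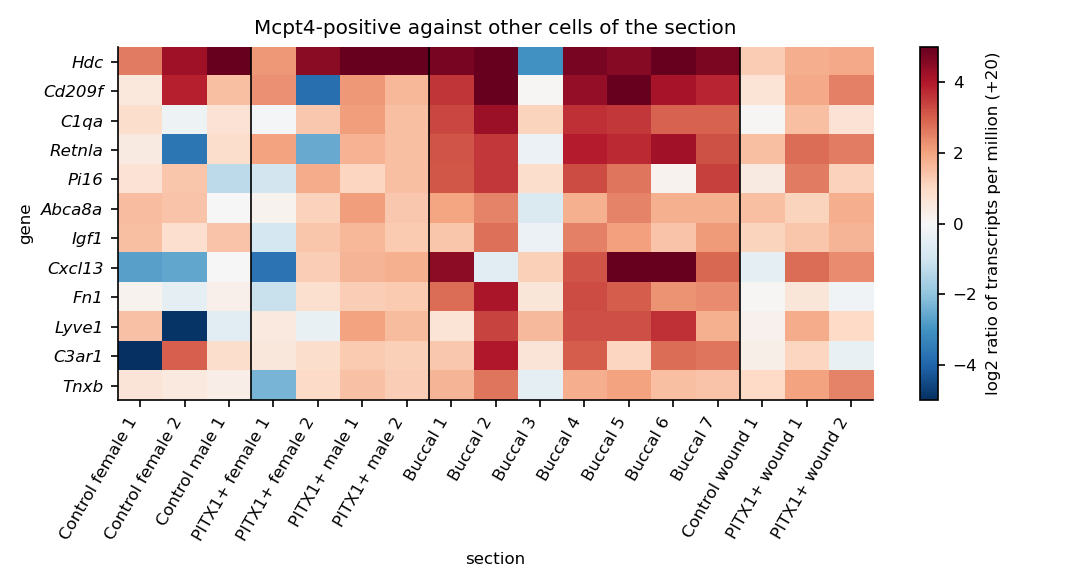
Log2 ratio of the level in Mcpt4-positive cells to that in the other cells of the same section (CPM, 20 added), for the 12 genes with the highest mean, in each of the 17 sections, on a colour scale from -5 to 5. *Hdc* is positive in every section but Buccal 3, and *Cd209f* and *C1qa*, pooled over sections, have their highest folds in buccal mucosa (21.2 and 10.2).

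Mediators that mast cells can release were mostly at low counts. *Tnf* was found in 1.43% of the cells, with 30 transcripts in all, *Ccl4*, a chemokine, had 12 transcripts and *Fgf2*, a growth factor, 57. *Ccl7* was highest in wounds, at 5587 CPM in the Control and 6303 and 5523 in the PITX1+ wounds, against 1720 to 1933 in the other cells there. *Ccl3*, a chemokine for macrophages and granulocytes, was at 3849, 214 and 1281 in the same wounds and so differed more between the PITX1+ wounds than *Ccl7* did. Pooled over the wounds *Ccl3* was at 1638 CPM, against 3101 in the other cells, and it was higher than in those in 1 of 3 wounds. *Il1b*, which encodes interleukin-1β, was at 2980, 4380 and 6804 in Mcpt4-positive cells of the wounds and at 6719, 6436 and 12254 in the other cells. It was thus lower in Mcpt4-positive than in other cells in all 3 wounds, and in the other sections it had 0 to 3 transcripts in Mcpt4-positive cells, too few to compare. *Areg*, which encodes the epidermal growth factor receptor ligand amphiregulin, was at 993, 641 and 160 in the wounds. Pooled over the wounds *Areg* was at 535 CPM, against 808 in the other cells, and it was higher than in those in 1 of 3 wounds. In unwounded skin Mcpt4-positive cells held 0 *Areg* transcripts, where the other cells held 821 CPM.

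Among granule, adhesion and receptor genes, *Cd63* had no transcript in 3 of the 4 female sections and 2098 CPM in the other, and between 13911 and 32498 in the 13 sections of the other slides. The other cells of the female slide were low in *Cd63* too, at 1645 CPM against 9839 on the male, 10137 on the buccal and 16115 on the wound slide. The sums of the female Mcpt4-positive cells were also small, at 365 to 2860 transcripts. *Cd34*, a sialomucin of mast cells, fibroblasts and endothelium, was higher than in the other cells in 14 of 17 sections, where 11.6% of panel genes reached at least 14. *Itgb3*, an integrin, and *Cd52*, a surface glycoprotein of leukocytes, were higher in 11 sections each, *Il18r1*, the interleukin-18 receptor, in 4 and *Cd44* in 1. Among the immediate early genes, which respond within minutes to many stimuli including the handling of tissue, *Jun* was higher in 10 sections, *Fos* in 9, *Atf3* in 8 and *Junb* in 3. No immediate early gene was thus higher in more than 10 of the 17 sections.

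Transcripts of other cell types were frequent in the outlines. Of the 1679 cells, 83.6% held at least 1 transcript of 8 fibroblast genes and 59.7% at least 3. The values were 53.9% and 26.6% for 9 macrophage genes, 30.4% and 11.9% for 6 endothelial genes, and 24.7% and 6.25% for 13 keratinocyte genes. T cell genes were found in 4.65% and neutrophil genes in 8.64%, the latter in 23.0% in wounds. Where a list had at least 3 transcripts in a cell, the one with the most was that of fibroblasts in 796 cells (47.4%), of macrophages in 238 (14.2%) and of keratinocytes in 72 (4.29%), and 364 cells (21.7%) held fewer than 3 transcripts of every list. Among cells with 5 or more *Mcpt4* transcripts 50.3% were led by fibroblast, 12.4% by macrophage and 0.967% by keratinocyte genes, and 29.4% held fewer than 3 of every list. The outlines of Mcpt4-positive cells were large, with median areas of 147 to 470 µm² per section against 62.9 to 268 for all cells. Whether fibroblast and macrophage transcripts were made in these cells or taken up from neighbours was not tested.

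Mcpt4-positive cells lay close to one another outside the female slide. The median distance to the nearest other one was 14.3 to 60.5 µm in the male, buccal and wound sections, and between 173 and 558 µm in the female ones. Another Mcpt4-positive cell lay within 30 µm of 57.6% of them in the male Control and of 72.4% and 64.8% in the male PITX1+ sections. In buccal mucosa this share had a lowest value of 30%, a median of 71.9% and a highest of 81.2%, and in wounds it was 63.1%, 66.4% and 75%. It was 0 in 3 of the female sections and 7.69% in the fourth. Cells with 5 or more *Mcpt4* had another such cell within 30 µm in 22.2%, 47.4% and 41.3% of cases in the male unwounded sections, and in 54.2%, 55.6% and 44% in the wounds. For comparison, 0.353% to 13.96% of other cells led by fibroblast genes, with at least 3 transcripts of them, had a Mcpt4-positive cell within 30 µm. How often adjoining outlines held *Mcpt4* transcripts of the same cell was not tested.

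**Figure D4:**
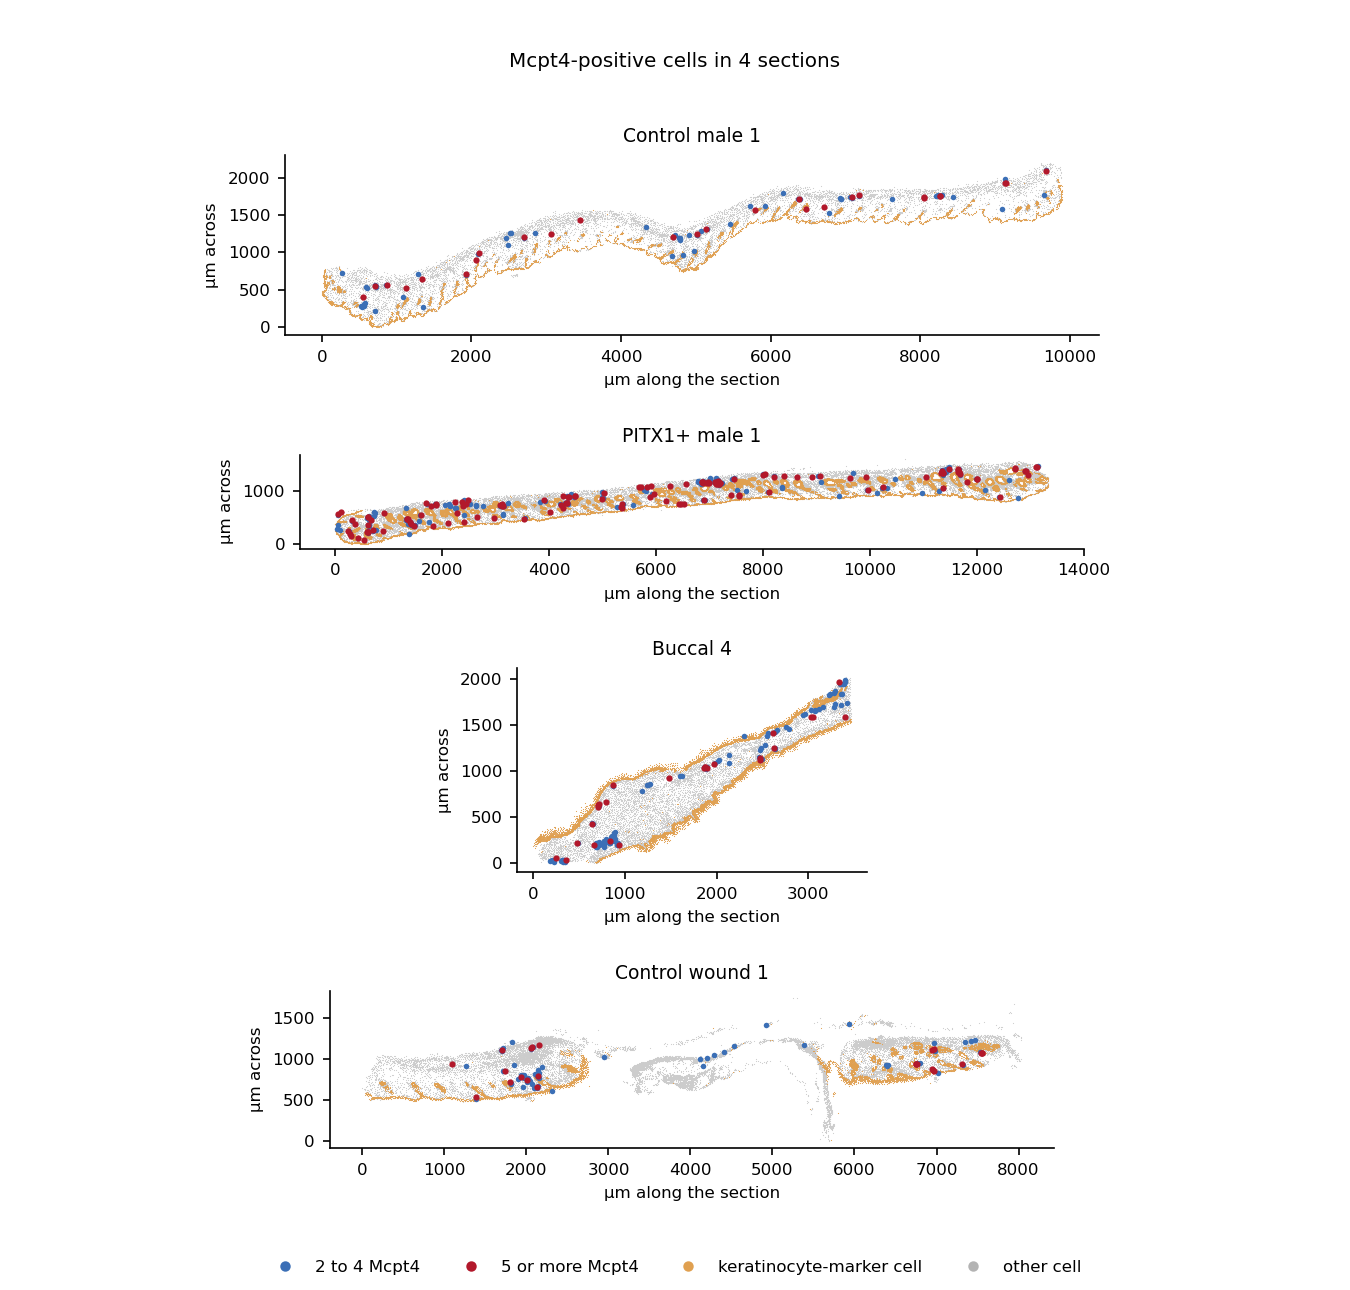
Positions in µm of the cells of 4 sections (Control male, PITX1+ male 1, Buccal 4 and the Control wound), with Mcpt4-positive cells of 2 to 4 transcripts in blue and of 5 or more in red, keratinocyte-marker cells in orange and all other cells in grey. Many lie in small groups, 57.6% having another Mcpt4-positive cell within 30 µm in the Control male section, and keratinocyte-marker cells make up 25.4% of their neighbours in the PITX1+ male section shown.

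The position of Mcpt4-positive cells was set against that of fibroblast-marker cells in the same section. The measure was the median distance to the nearest marker cell of another type. A marker cell held at least 3 transcripts of its type's list, and that list had the most transcripts in the cell. In buccal mucosa Mcpt4-positive cells lay farther from keratinocytes than fibroblast-marker cells did. Their median distance to a keratinocyte-marker cell had a lowest value of 42.9, a median of 85.1 and a highest of 324 µm over the 7 sections, and was larger than that of fibroblast-marker cells in all 7. The mean was 113 against 62.5 µm, a difference of 50.4 ± 43.4 µm (SD, n = 7, exact sign-flip permutation of sections, two-sided, p = 0.0156, adjusted p = 0.0469 over 6 comparisons of distance). The highest value was that of Buccal 3, which held 11 keratinocyte-marker cells. Without it the difference was 36.3 µm. With any 1 section left out the difference kept its direction in all 6 remaining sections, with an exact p of 0.03125, the smallest that 6 sections allow (adjusted p = 0.0938), so the loss of the call came with the number of sections.

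In unwounded skin the distances to keratinocyte-marker cells were 81.1, 102 and 89.7 µm in the Control sections (female 1, female 2, male) and 15.3, 30.5, 45.9 and 65.0 µm in the PITX1+ sections (female 1, female 2, male 1, male 2). Each PITX1+ section was thus below each Control section, but fibroblast-marker cells showed a like order, at 43.5, 46.0 and 82.4 against 24.8, 30.5, 22.7 and 33.9 µm, and the difference between conditions was not tested. Mcpt4-positive cells lay farther from keratinocytes than fibroblasts in 5 of 7 sections, by 20.7 ± 22.9 µm, which did not pass (adjusted exact p = 0.188). All 3 male sections showed that direction, with a mean of 20.5 µm.

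Mcpt4-positive cells of buccal mucosa lay slightly farther from endothelial-marker cells than fibroblasts did. The distances ran from 23.0 to 37.0 µm with a median of 24.2, against a mean of 19.7 µm for fibroblast-marker cells, and were larger in 7 of 7 sections, by 7.07 ± 3.38 µm (exact sign-flip p = 0.0156, adjusted p = 0.0469). With any 1 section left out it was 5.94 to 7.75 µm, and the call was lost with each, again at the smallest p that 6 sections allow (adjusted exact p = 0.0938). In unwounded skin the difference was 3.00 ± 13.8 µm (adjusted exact p = 0.713). There the direction depended on the slide, since all 3 male sections had Mcpt4-positive cells nearer to endothelium, by a mean of -9.17 µm, and none of the 4 female sections did (12.1 µm). In another setting both endothelial- and fibroblast-marker cells were required to have at least 5 transcripts of their list. All 7 skin sections, the 4 female ones included, then had Mcpt4-positive cells nearer to endothelium, by -37.2 ± 55.2 µm, which passed (adjusted exact p = 0.0469). The mean distance of fibroblast-marker cells moved from 69.5 to 119 µm with this setting, and that of Mcpt4-positive cells from 72.5 to 82.2 µm. The slides thus no longer differed in direction. No difference passed for cells with Schwann cell transcripts, which wrap nerve fibres, with 198 against 178 µm in skin (adjusted exact p = 0.211) and 65.9 against 66.1 µm in buccal mucosa (exact p = 0.969).

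**Figure D5:**
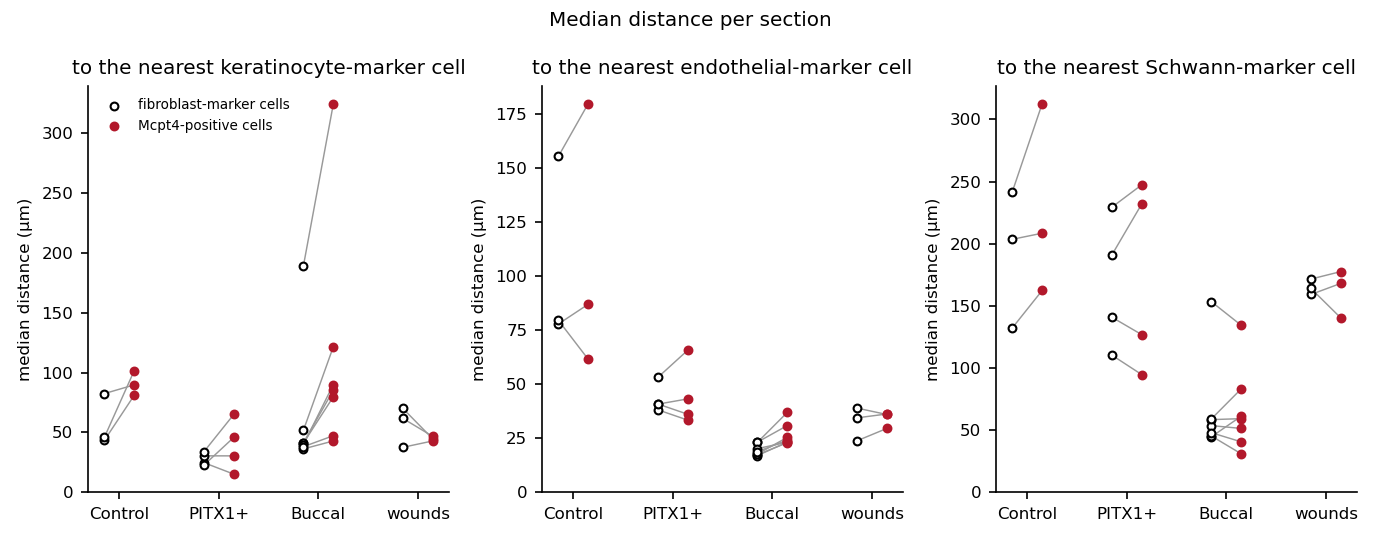
Median distance in µm per section from Mcpt4-positive cells (red) and from fibroblast-marker cells (open) to the nearest keratinocyte-, endothelial- and Schwann-marker cell, with a line joining the values of the same section. In buccal mucosa the red points lie above the open ones in 7 of 7 sections for keratinocytes and for endothelium, and in skin the lines run both ways.

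The cells within 30 µm held fewer keratinocytes and more fibroblasts than the section in male unwounded skin. Keratinocyte-marker cells made up 10.7%, 25.4% and 15.6% of neighbours in the male unwounded sections, against 34.4%, 56.7% and 46.5% of cells with no *Mcpt4*. Fibroblast-marker cells made up 51.3%, 42.9% and 47.4% of neighbours, against 33.7%, 23.0% and 33.1%. In the wounds, neutrophil-marker cells lay at a median of 114 µm in the Control and 32.1 and 45.5 µm in the PITX1+ sections, and at 106, 32.4 and 21.2 µm from fibroblast-marker cells. Keratinocyte-marker cells made up less of the neighbours than of the section in 15 of 17 sections, the exceptions being PITX1+ female 1 (47.3% against 42.8%) and the Control wound (30.1% against 26.2%). Fibroblast-marker cells made up more of them in 15 of 17, the exceptions being the female Control sections (22.4% against 22.8% and 23.6% against 33.8%). These are descriptions with no test.

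Expression within Mcpt4-positive cells was then compared between conditions, on transcripts summed per section without *Mcpt4*. In unwounded skin 0 of 85 genes tested (0.0%) changed between PITX1+ and Control sections at an adjusted p of 0.05 with edgeR's quasi-likelihood test, slide as covariate and Benjamini-Hochberg adjustment. At an unadjusted p of 0.05 there were 3 (3.53%), the epidermal differentiation genes *Krt1* and *Sprr2a3* with positive and *Igfbp3*, a binding protein of insulin-like growth factors, with negative log2 values (3.88, 3.02 and -1.11), and DESeq2 called 1, *Des*, which encodes the desmin of muscle cells, at a log2 fold change of -4.70. The sums were small, at 365 to 3115 transcripts in the Control sections. The summed level of the 13 keratinocyte genes in Mcpt4-positive cells was 9310 to 117810 CPM in Control and 9552 to 174160 in PITX1+ sections. In Mcpt4-positive cells with no transcript of these genes, edgeR called 0 of 20 genes tested. *Krt1* is among the 13 and could not be tested there. The part of keratinocyte transcripts in the values of *Krt1* and *Sprr2a3* was not tested further. *Hdc* had a log2 fold change of 0.36 (SE 0.57) and *Cd63* of 0.67, with adjusted p-values of 0.97 and 0.93 by edgeR's quasi-likelihood test. The test of whether a gene changed otherwise in these cells than in their neighbours called 0 of 240 genes (0.0%) by edgeR, with 17 (7.08%) at an unadjusted p of 0.05.

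Within the male slide, with 1 Control section against 2, edgeR's quasi-likelihood test called 4 of 206 genes. This setting was chosen after seeing the data and takes the lone Control section to vary like the PITX1+ sections, so the 4 genes are given by their values alone. *Krt79*, a keratin of hair follicles and sebaceous ducts, was at 5778 CPM in the Control and 994 and 469 in the PITX1+ sections (log2 fold change -3.12). *Efemp1*, a matrix gene, was at 642 against 5416 and 5563 (log2 fold change 2.98). *Pdgfrb*, the receptor for platelet-derived growth factor on mural cells and fibroblasts, was at 13162 against 5615 and 4726 (log2 fold change -1.46). *Cd74*, the invariant chain of antigen presentation, was at 17014 against 6410 and 7373 (log2 fold change -1.40). The interaction with neighbours called 6 of 253 genes within the male slide, *Krt79* (log2 value -2.06) and *Efemp1* (2.86) among them. The summed level of the 13 keratinocyte genes in Mcpt4-positive cells was 9310 to 12770 CPM in the male sections and 95455 to 174160 in the female ones.

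Between buccal mucosa and Control skin 3 of 81 genes (3.7%) changed by edgeR's quasi-likelihood test, 1 higher and 2 lower in buccal mucosa, and 25 (30.9%) were at an unadjusted p of 0.05. DESeq2 called 15 of the same 81, 11 higher and 4 lower. The count of calls turned on single sections, with 23 without the male Control section, 12 without Buccal 6, 7 without Control female 1, 6 without Buccal 3, 1 without Control female 2, Buccal 1 or Buccal 2, and 0 without Buccal 4, 5 or 7. *Retnla* was at 1111, 0 and 1926 CPM in the Control sections and between 3950 and 27996 in the buccal sections, with a median of 14114 and no overlap. *Retnla* rose, with a log2 fold change of 3.50 (SE 0.76, adjusted p = 0.0240). Neighbours held 1291, 0 and 1705 in Control skin and 2137 to 13456 in buccal mucosa, below the Mcpt4-positive cells of the same section in 7 of 7 buccal sections. Without the female slide the log2 fold change of *Retnla* was 3.06 and did not pass (edgeR adjusted p = 0.231, 1 Control section), and with any 1 section left out its adjusted p by edgeR ran from 0.00909 to 0.0744.

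*Krt17*, a keratin of hair follicles and wounded epidermis, fell (log2 fold change -4.25, SE 0.84, adjusted p = 0.0210 by edgeR's quasi-likelihood test). It was at 23333, 30137 and 4173 CPM in the Control sections and between 0 and 2271 in the buccal sections. The highest Control values were those of the female slide, and without it the log2 fold change was -2.11 with an adjusted p of 0.392 by edgeR. With 1 section left out it could be tested in 6 of 10 settings and held in 5, the exception being without Control female 2 (edgeR adjusted p = 0.0676). *Col1a1*, which encodes a chain of type I collagen, fell as well (log2 fold change -2.05, SE 0.52, adjusted p = 0.0497 by the same test), from 13333, 46575 and 123270 in Control to between 6045 and 20316, so that the groups overlapped. The call was near the threshold and held in 3 of 10 settings with 1 section left out (edgeR adjusted p from 0.0170 to 0.330). The value moved most with the male Control section. Without it the log2 fold change of *Col1a1* was -0.63 (edgeR adjusted p = 0.330). Without the female slide, which leaves 1 Control section, the log2 fold change of *Col1a1* was -3.07. In neighbours *Col1a1* fell too, with a log2 fold change of -2.63 (edgeR adjusted p = 0.0140). In Mcpt4-positive cells the summed level of the 13 keratinocyte genes was 9310 to 117810 CPM in Control and 3950 to 103630 in buccal sections, and that of the 8 fibroblast genes 60000 to 176570 and 36269 to 100980. The 9 macrophage genes summed to 13699 to 46228 CPM in Control and 12980 to 40927 in buccal sections. In Mcpt4-positive cells with no transcript of the 13 keratinocyte genes, edgeR called 3 of 55 genes, 2 higher and 1 lower in buccal mucosa. *Krt17*, being among those 13 genes, could not be tested there. No setting left out fibroblast or macrophage transcripts, and their part in the 3 calls was not tested.

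Among genes that did not pass, *Cd34* had a log2 fold change of 1.70 between buccal mucosa and Control (edgeR adjusted p = 0.0701), *Lyve1* of 2.48 (adjusted p = 0.0857 by edgeR) and *Pi16* of 1.95 (adjusted p = 0.0976 by edgeR). *Hdc* was at too few counts to be tested here. In neighbours, whose sums were larger, edgeR called 36 of 225 genes (16%), 21 higher and 15 lower in buccal mucosa. The test of whether Mcpt4-positive cells differed between tissues otherwise than their neighbours called 0 of 210 genes (0.0%) by edgeR, with 20 (9.52%) at an unadjusted p of 0.05. The smallest adjusted p-values there were those of *Krt17* (interaction log2 value -2.40, adjusted p = 0.0601), *Col17a1*, a hemidesmosome gene of basal keratinocytes (-3.94, adjusted p = 0.0695), and *C1qa* (1.85, adjusted p = 0.0952), all by edgeR's quasi-likelihood test.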

How the data were processed

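Xenium in situ data of 4 slides were used. Per the labels, sections of 5 µm from fixed, paraffin-embedded tissue were run with the Xenium gene expression kit. The authors deposited tables as the instrument wrote them: counts of transcripts per cell, not normalized, and a quality score, position and cell for each transcript, with positions and areas in µm and µm². Software version and segmentation settings are not given in the sources used here. Cell and nucleus outlines were not used. Pairs of slides shared 1 to 7 cell names, 25 in all, and cells were kept apart by slide.

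Only transcripts scored 20 or higher for quality were used, in cells with at least 10 of them. Sections were cells chained within 100 µm (200 µm on the wounded slide), of at least 2000 cells, ordered along the slide. The first section of each 3-section skin slide and the first 2 of the 4-section slide were taken as Control. Totals of unwounded skin and buccal sections lay within 0.493% of totals listed with the study, apart from Buccal 5 (4.91%), and at least 8.64% from any section of another condition. Wound sections were matched to no listed total. Marker cells held at least 3 transcripts of a list and were assigned to the list with the most transcripts in the cell. Thinned shares were expected values with no random draw. They were the mean over cells of the exact chance that 10 of a cell's transcripts include at least 2 of *Mcpt4*. The members and gene lists were chosen with earlier results of these data known.

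Counts summed per section were tested by the quasi-likelihood test of edgeR (version 4.0.16, under R 4.3.3) after filterByExpr and TMM, with Benjamini-Hochberg adjustment and a threshold of 0.05, with slide as covariate for PITX1+ against Control, and with section as a block against neighbours. DESeq2 1.42.0 was an alternative. Densities, shares and distances were compared with two-sided exact permutation tests (scipy 1.17.1, numpy 2.4.6, pandas 2.3.3 and matplotlib 3.10.9 under Python 3.11.15), adjusted over 4 and 6 comparisons, and PITX1+ against Control also with conditions exchanged within slides only. Shares carry exact (Clopper-Pearson) 95% intervals, which cover counting error only. Sums per section ran from 365 to 29838 transcripts in Mcpt4-positive cells, the 2 female Control sums being the smallest. Scripts were tested on simulated data.

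Genes named were the 12 with the largest mean log2 ratio to other cells among those in at least 5% of Mcpt4-positive cells, those past the threshold in a comparison, and lists of mediators, granule, adhesion and receptor genes, immediate early genes and *Mcpt8*. Genes that go with *Mcpt4* per cell were chosen after their values were seen. Alternatives varied the minimum of *Mcpt4*, transcripts and markers, quality, nuclear transcripts, squares, neighbour radius, normalization, gene filter and sections. Counts of at least 5 *Mcpt4* transcripts and all single-slide or slide-left-out values were chosen after seeing the data.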

Additional observations from a re-analysis of the deposited data

Results flagged for a closer look

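In buccal mucosa the median distance from Mcpt4-positive to keratinocyte-marker cells was 323.6 µm in Buccal 3, far from the other 6 sections, of which the next had 121 µm. This was 1 of 18 groups of sections examined for a value far from the rest, and chance gives about 1 in 20. Buccal 3 held 11 keratinocyte-marker cells.

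The difference in share of cells between PITX1+ and Control skin was 0.232 percentage points in male and -0.0560 in female skin, opposite in direction, and the difference between slides was not tested. With every cell thinned to 10 transcripts the PITX1+ sections had the lower shares in either sex. The gap was small in male skin, at 0.289% in the Control and 0.281% and 0.233% in the PITX1+ sections. Over both slides the thinned mean was 0.115% in Control and 0.134% in PITX1+ skin. In male skin the median depth of all cells was 26 transcripts in the Control and 59 and 87 in the PITX1+ sections. The part of depth in the opposite directions was not tested. Mcpt4-positive cells lay nearer to endothelial-marker cells than fibroblast-marker cells did on the male slide (-9.17 µm) and farther on the female slide (12.1 µm). The difference between slides of -21.3 µm had an exact permutation p of 0.0571 over 3 and 4 sections. With at least 5 transcripts required of endothelial- and fibroblast-marker cells alike, Mcpt4-positive cells lay nearer in all 7 sections of both slides. Keratinocyte transcripts were found in 17.2% of Mcpt4-positive cells on the male and 49.0% on the female slide, and their part in both differences was not tested.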

How the results depend on the processing

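Of 106 values recomputed under alternatives other than leaving out a section, 79 had the same direction and side of the threshold as reported (or, for counts of genes, lay within 1.5 times), as did 82 of 136 values with a section left out. No paired analysis was possible because the labels match no sections of different conditions. The alternatives with at least 5 *Mcpt4* transcripts, with a single slide, with conditions exchanged within slides or without the female slide were chosen after seeing the data. The buccal share passed with transcripts of any quality (0.864 percentage points, adjusted exact p = 0.0333), and the PITX1+ share was -0.0560 on the female slide. The buccal density did not pass without the female slide (21.0 cells per mm²), at 3 or 5 *Mcpt4* transcripts (13.4 and 5.96) or in cells with at least 20 transcripts (24.6, adjusted exact p = 0.0667). The endothelial distance in skin turned to -9.17 µm on the male slide, -9.24 at 3 *Mcpt4* transcripts and -37.2 with 5 marker transcripts. The Schwann distance turned to -8.28 µm on the male slide and, in buccal mucosa at 3 *Mcpt4* transcripts, to 3.12. With 5 marker transcripts the keratinocyte distance in buccal mucosa was 46.7 µm over 6 sections, in the same direction in all 6, with the smallest p that 6 allow (adjusted exact p = 0.0625). DESeq2 called 1 gene for PITX1+ and 15 for buccal mucosa, where no gene filter gave 10, keeping *Mcpt4* 1 and nuclear transcripts 0 by edgeR. The male slide gave 4 genes and, against neighbours, 6, and library size alone gave 2 for buccal mucosa against neighbours. The cause of these changes was not tested.

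With 1 section left out, the PITX1+ share ran from -0.00799 (without PITX1+ male 2) to 0.371 and the buccal share from 0.437 to 0.733 percentage points, the PITX1+ density from 7.75 to 21.1 and the buccal density from 26.6 to 34.1 cells per mm². The endothelial distance ran from -0.562 (without Control female 2) to 6.502 µm in skin and from 5.94 to 7.75 in buccal mucosa, the keratinocyte distance in buccal mucosa from 36.3 to 57.7 and the Schwann distance there from -4.28 to 2.92. Both buccal calls of distance were lost with any section left out, at the smallest p that 6 sections allow (adjusted exact p = 0.0938). Counts of genes ran from 0 to 2 for PITX1+, from 0 to 23 for buccal mucosa and from 0 to 1 for buccal mucosa against neighbours. The 2 PITX1+ calls, without the male Control section, were *Des* and *Fabp5*. *Krt17* had too few counts to be tested without Buccal 1, 4, 5 or 7. Depth also limits the gene comparisons, since the smallest Control sum held 365 transcripts, and no result here separates sex from slide or tissue from slide.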
